A study of Mus musculus with 121 samples.

Results

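Sncb, Sncg, Lrrk2, Pink1, Park7, Uchl1, Vps35 and Atp13a2 are genes named in inherited Parkinson disease or, for Sncb and Sncg, genes of the synuclein family. They were taken by their symbols, by a rule that uses no measured value, and make up 8 of the 24412 genes in the deposited count table. Each symbol matched 1 gene, and all 8 passed the filter on low counts in every fit.

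Parkinson disease is marked by the loss of dopamine neurons of the substantia nigra, whose axons run to the striatum. The synucleins are small proteins of nerve terminals that bind lipid membranes and synaptic vesicles. The other genes act in mitochondrial upkeep and oxidative stress (Pink1, Park7), ubiquitin turnover (Uchl1), the sorting of cargo out of endosomes (Vps35), lysosomal transport (Atp13a2) and the phosphorylation of Rab GTPases on membranes (Lrrk2).

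The study sequenced poly(A) RNA of prefrontal cortex (PFC), striatum (STR) and substantia nigra (SN) from male mice with an altered allele of Gdnf. This gene encodes glial cell line-derived neurotrophic factor (GDNF), a growth factor that acts on nigral dopamine neurons. The altered allele is a conditional knock-up, written cKU in the labels, whose recombination by Cre is meant to raise GDNF made from its own locus. Mice were wt/wt (WT), wt/cKU (HET) or cKU/cKU (HOM) for it, on a 129Ola/ICR/C57bl6 mixed background. The Nestin-Cre mice were aged 2 months and had no treatment, and 21 of them gave 56 libraries. The AAV-Cre mice were injected with AAV-Cre in the striatum of both hemispheres at the age of 3 to 5 months and were taken at 5 to 7 months, and 22 of them gave 65 libraries. The Nestin-Cre libraries numbered 8 WT, 6 HET and 4 HOM in PFC, 6, 7 and 6 in STR, and 6, 7 and 6 in SN. The AAV-Cre libraries numbered 7 WT, 7 HET and 8 HOM in PFC, 7, 7 and 7 in STR, and 7, 7 and 8 in SN.

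The Nestin promoter drives Cre in precursors of neurons and glia throughout the central nervous system, so in those mice the allele is recombined from before birth. AAV-Cre was delivered to the striatum alone, so PFC and SN of those mice were not injected. WT mice of each model are the littermate controls and share the Cre exposure of their model. The models differ in age, in the virus, in the source of Cre and possibly in sequencing, and these cannot be told apart. The labels call 1 mouse WT for its PFC library (N_PFC_WT_4575) but HOM for its other libraries (N_STR_HOM_4575 and N_SN_HOM_4575).

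Gdnf itself (Entrez 14573, plus strand) was detected mainly in STR, with 74 to 200 counts per library there. Levels are given in cpm, a gene's counts relative to the library total after that total was scaled by edgeR's TMM factor. In Nestin-Cre STR it ran from 3.95 to 7.75 cpm in WT mice (median 6.24), from 4.01 to 9.40 in HET (median 5.63) and from 5.74 to 9.89 in HOM (median 6.93), with overlap of the groups. The log2 differences from WT were 0.07 (SE 0.189) and 0.28 (SE 0.195). In AAV-Cre STR it ran from 5.49 to 7.51 cpm in WT mice (median 6.82), from 6.43 to 9.54 in HET (median 7.53) and from 7.71 to 10.1 in HOM (median 8.66). All 7 HOM libraries there lay above every WT library, a log2 difference of 0.40 (SE 0.0938), although its adjusted p over all genes was 0.504. In PFC and SN no library held more than 38 counts, and every HET and HOM group overlapped with WT. A test was made there in AAV-Cre PFC alone. Its log2 differences were 0.30 (SE 0.381, adjusted p 0.773) for HET and 0.12 (SE 0.373, adjusted p 0.912) for HOM. Such low counts limit what can be seen. The paper describes mRNA of the recombined allele as ending in a short untranslated region in place of the native one. By qPCR it reported raised striatal Gdnf mRNA with the altered allele in both models. Counts over all annotated Gdnf exons are another measure, and the part of the shorter end in them was not tested.

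Defining markers of each dissected region were present. Th, the enzyme that limits dopamine synthesis, had a median of 595 cpm in Nestin-Cre WT SN and 550 cpm in AAV-Cre WT SN, and no WT library of PFC or STR passed 37.1 cpm. Slc6a3, the dopamine transporter, had medians of 1064 and 1174 cpm in SN of the same groups and 0.374 and 0.356 cpm in STR. The summed level of 10 markers of striatal projection neurons had a median of 11763 cpm in Nestin-Cre WT STR and 9279 cpm in AAV-Cre WT STR, beside 301 and 341 cpm in SN. In PFC that sum was 734 and 1000.4 cpm, and transcription of these markers in cortex and striatal tissue in the dissection cannot be told apart. Slc17a7, the vesicular glutamate transporter of cortical excitatory neurons, had medians of 1741 and 1489 cpm in PFC.

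Library totals ran from 9869584 to 26750905 counts with a median of 17885830. Group medians ran from 13456979 in AAV-Cre HOM PFC to 20090039 in AAV-Cre HET SN. Across all libraries Sncg had the fewest counts of any member, from 21 to 3165 with a median of 60. The next fewest belonged to Lrrk2, from 235 to 4303. No library held fewer than 916 counts of any of the other 6 members. Levels of Sncg outside the SN therefore rest on few counts per library.

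In the mm10 coordinates of the table, 3 members lie on chromosome 4 but far from each other. They are Pink1 (Entrez 68943, chr4:138313410-138326296, minus strand), Atp13a2 (Entrez 74772, chr4:140986873-141007701, plus strand) and Park7 (Entrez 57320, chr4:150897133-150909921, minus strand). Sncb (Entrez 104069) is at chr13:54758860-54766440 on the minus strand and Sncg (Entrez 20618) at chr14:34370274-34374669 on the minus strand. Uchl1 (Entrez 22223) is at chr5:66676121-66687234 on the plus strand and Vps35 (Entrez 65114) at chr8:85260392-85299497 on the minus strand. Lrrk2 (Entrez 66725, chr15:91673224-91816124, plus strand) shares its chromosome with Gdnf (chr15:7810048-7837580). Uchl1 is the only member whose exons share bases with another gene of the table, 214 bases with Uchl1os on the other strand. The labels name a stranded library kit but not the strand setting of the counting, so reads of Uchl1 and Uchl1os in that stretch might not be separated.

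Uchl1, which encodes an abundant neuronal ubiquitin hydrolase, had the highest level per length of the 8 genes in every WT group. On the scale of cpm per kilobase of exon (RPKM), its median was 545, 577 and 711 in PFC, STR and SN of Nestin-Cre mice and 440, 388 and 589 in AAV-Cre mice. Its lowest WT library lay above the highest library of the gene next in order in all 6 groups. In PFC of both models the order after Uchl1 was Sncb, Pink1, Park7, Vps35, Atp13a2, Lrrk2 and Sncg. The ranges of neighbours in this order were apart in Nestin-Cre PFC. In AAV-Cre PFC, those of Vps35 and Atp13a2 met, and so did those of Lrrk2 and Sncg.

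The order changed with region mainly through 3 genes. In STR, Sncb fell behind Pink1, with a median of 129 RPKM in Nestin-Cre and 114 RPKM in AAV-Cre mice against 187 and 169 RPKM for Pink1. In Nestin-Cre STR the ranges of Pink1, Park7, Sncb and Vps35 met from neighbour to neighbour. In AAV-Cre STR, Sncb and Park7 met while Pink1 and Vps35 stood apart from them. In SN, Sncg left the last place, with a median of 165 RPKM in Nestin-Cre and 112 RPKM in AAV-Cre mice. Its range met those of Sncb, Pink1 and Park7 in Nestin-Cre mice, but in AAV-Cre mice it met that of Park7 alone and lay below Pink1 and Sncb. Lrrk2 took the last place there with 2.40 and 3.10 RPKM, below Atp13a2 and apart from it in range.

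**Figure D1:**
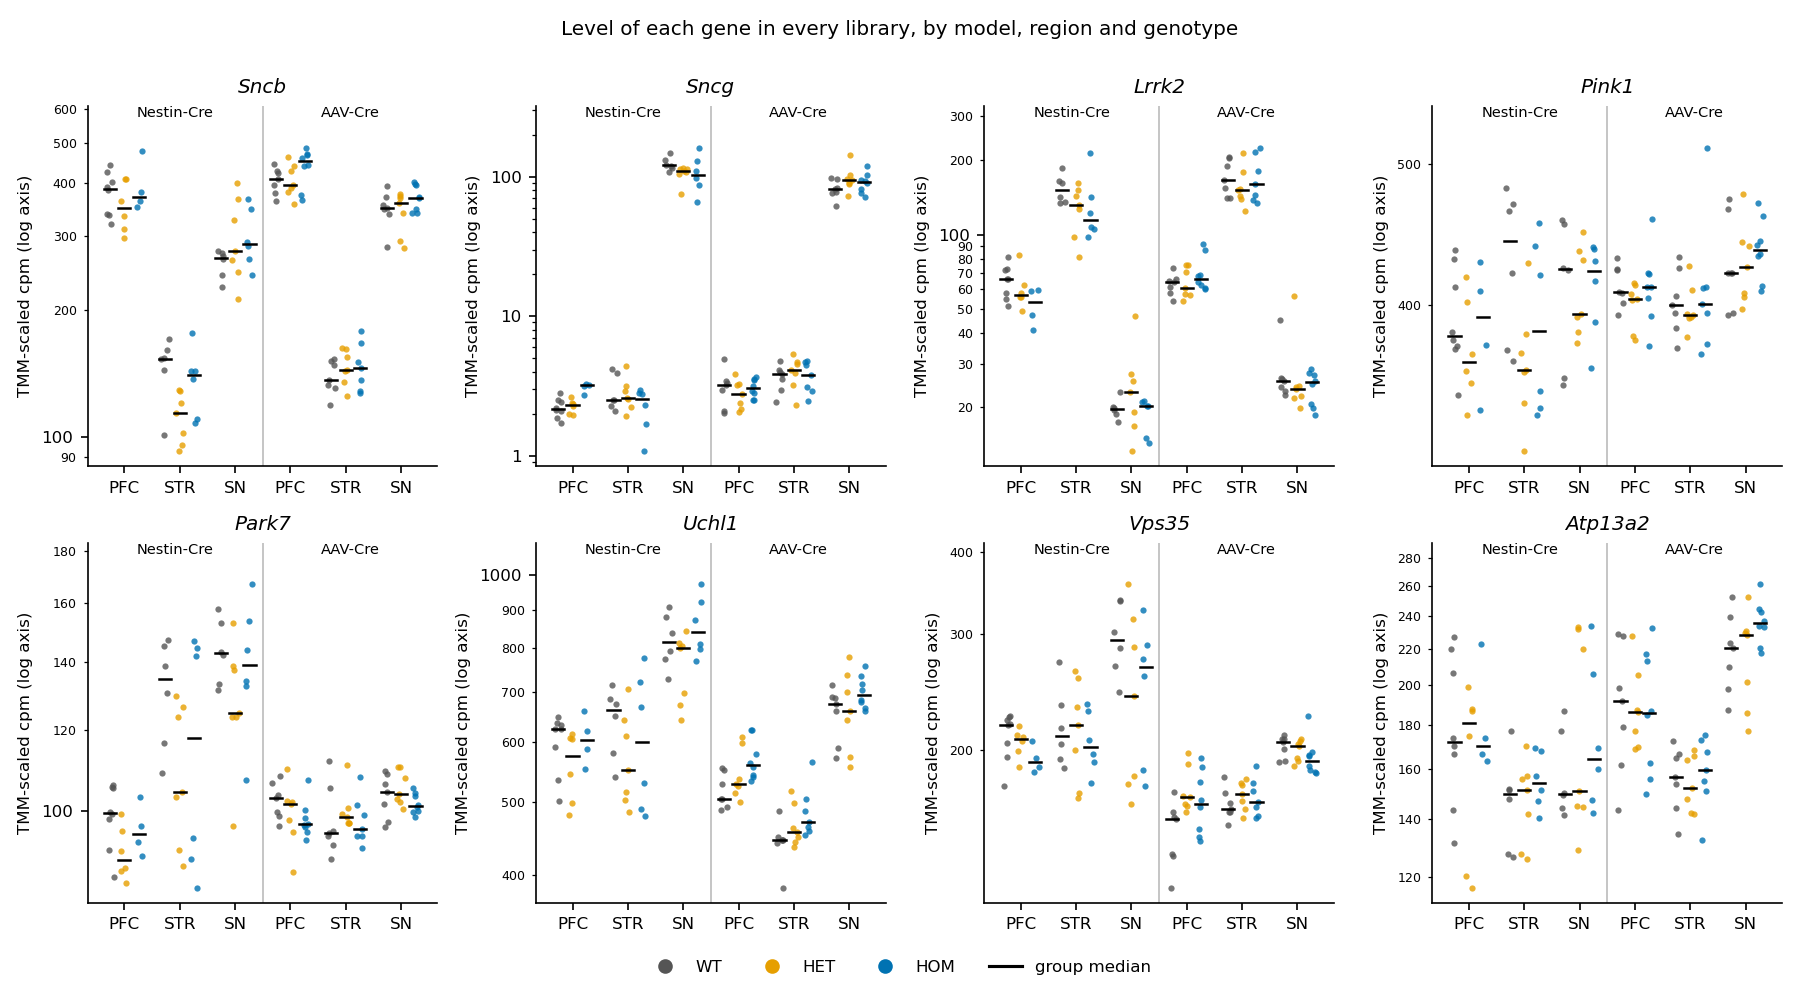
Each of the 8 panels shows 1 gene as cpm on a log axis, with 1 point per library and a bar at the group median, by model, region and genotype (WT, HET, HOM). Sncg is high in SN libraries alone, Lrrk2 is highest in STR, Sncb is lowest in STR, and the 3 genotypes overlap in every model and region.

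Regions of the WT mice were compared to describe where the 8 genes are transcribed when no allele is altered. Sncg, Lrrk2 and Sncb had the largest differences between regions in both models. Sncg was high in SN and low in PFC and STR, Lrrk2 was highest in STR and lowest in SN, and Sncb was highest in PFC and lowest in STR. The log2 differences of the other 5 genes stayed between -0.30 and 0.60. In these bulk tissues, fewer cells of a type and less RNA per cell cannot be told apart.

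In Nestin-Cre WT mice, 5 of the 8 genes passed edgeR's quasi-likelihood test at an adjusted p under 0.1 between STR and PFC (3 higher and 2 lower in STR), as did 68.1% of all genes tested. Between SN and PFC, 6 of 8 passed (4 higher and 2 lower in SN) beside 78.8% of all genes. Between SN and STR, 5 of 8 passed (4 higher and 1 lower in SN) beside 76.2% of all genes. Most genes differ between brain regions, and the share of these 8 that did was near the share of all genes.

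In AAV-Cre WT mice, 5 of 8 passed between STR and PFC (2 higher and 3 lower in STR) beside 65.6% of all genes. Between SN and PFC, 6 of 8 passed (4 higher and 2 lower in SN) beside 74.1% of all genes. Between SN and STR, all 8 passed (7 higher in SN and Lrrk2 lower) beside 75.6% of all genes. Over both models, 35 of 48 tests passed, 24 upward and 11 downward. The counts again say nothing particular of these genes, and their sizes and levels follow by role.

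Sncg encodes gamma-synuclein, a synuclein of sensory, motor and midbrain neurons. In WT SN its level ran from 108 to 149 cpm with a median of 120 in Nestin-Cre mice. In AAV-Cre mice it ran from 61.9 to 98.3 cpm with a median of 81.7. Every WT library of PFC and STR was far below these, the highest at 4.92 cpm in PFC and 4.80 cpm in STR, both in AAV-Cre mice. SN therefore overlapped with neither of the other regions in either model.

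The log2 difference of Sncg between SN and PFC was 5.78 (SE 0.132, adjusted p 4.9e-19) in Nestin-Cre and 4.76 (SE 0.153, adjusted p 4.3e-17) in AAV-Cre WT mice, with every SN library above the PFC mean. Between SN and STR it was 5.43 (SE 0.145) and 4.52 (SE 0.147). PFC and STR overlapped, with medians of 2.16 and 2.5 cpm in Nestin-Cre and 3.23 and 3.87 cpm in AAV-Cre mice. The difference between STR and PFC passed in Nestin-Cre mice (0.35, SE 0.152, adjusted p 0.0476, 5 of 6 STR libraries above the PFC mean). In AAV-Cre mice it was 0.24 (SE 0.178, adjusted p 0.256).

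Sncb encodes beta-synuclein, which is found at nerve terminals through much of the brain. In Nestin-Cre WT mice it ran from 321 to 443 cpm in PFC (median 388), from 102 to 172 in STR (median 154) and from 227 to 277 in SN (median 267). In AAV-Cre WT mice it ran from 364 to 446 cpm in PFC (median 410), from 119 to 154 in STR (median 137) and from 283 to 395 in SN (median 351). STR libraries lay below all libraries of the other regions, and SN and PFC overlapped in AAV-Cre mice only. The log2 difference between STR and PFC was -1.38 (SE 0.0999) in Nestin-Cre and -1.55 (SE 0.0681) in AAV-Cre mice. Between SN and STR it was 0.81 (SE 0.104) and 1.36 (SE 0.0678), and between SN and PFC -0.57 (SE 0.0971) and -0.19 (SE 0.0663). All 6 passed, with adjusted p of at most 0.0150.

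Lrrk2 encodes a large kinase with a GTPase domain that phosphorylates Rab proteins. In Nestin-Cre WT mice it ran from 134 to 187 cpm in STR (median 152), from 51.2 to 81.0 in PFC (median 66.1) and from 17.5 to 23.1 in SN (median 19.8). In AAV-Cre WT mice it ran from 140 to 206 cpm in STR (median 165), from 53.8 to 73.1 in PFC (median 64.2) and from 22.4 to 45.0 in SN (median 25.5). No 2 regions overlapped in either model, although 1 AAV-Cre SN library, A_SN_WT_3587, stood apart at 45.0 cpm. The log2 difference between SN and STR was -2.96 (SE 0.114) in Nestin-Cre and -2.60 (SE 0.133) in AAV-Cre mice. Between SN and PFC it was -1.73 (SE 0.106) and -1.16 (SE 0.130), and between STR and PFC 1.23 (SE 0.0966) and 1.44 (SE 0.127). Every adjusted p of these 6 was at most 4.4e-08.

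Pink1 encodes the mitochondrial kinase that marks damaged mitochondria for removal. It was the most even of the 8 genes over regions, with WT medians between 381 and 442 cpm in all 6 groups. All regions overlapped within each model. The only difference that passed was SN against STR in AAV-Cre mice (log2 0.12, SE 0.0463, adjusted p 0.0247, 5 of 7 SN libraries above the STR mean), and the call was lost in 3 of 7 alternative fits, with adjusted p from 0.0115 to 0.218. Between SN and PFC in AAV-Cre mice the log2 difference was 0.08 (adjusted p 0.118) and passed at 0.10 (adjusted p 0.0591, in a range of 0.0591 to 0.413) without library A_SN_WT_3587.

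Park7 encodes DJ-1, a protein that guards against oxidative stress. In Nestin-Cre WT mice its level ran from 86.2 to 106 cpm in PFC (median 99.5), from 109 to 147 in STR (median 135) and from 131 to 158 in SN (median 143). PFC was below both other regions there without overlap, by 0.39 (SE 0.0681) on the log2 scale against STR and 0.52 (SE 0.0680) against SN. In AAV-Cre WT mice the 3 regions overlapped, with medians of 103, 95.1 and 104 cpm. Between SN and STR the log2 difference was 0.13 (SE 0.0730, adjusted p 0.121) in Nestin-Cre and 0.11 (SE 0.0484, adjusted p 0.0390) in AAV-Cre mice. With mouse as a replicate block the Nestin-Cre difference was 0.16 and passed (adjusted p 0.0405). The calls of this pair changed with other settings too, with adjusted p from 0.0405 to 0.305 in Nestin-Cre and from 0.0234 to 0.203 in AAV-Cre mice.

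Uchl1 was highest in SN. In WT SN it ran from 728 to 908 cpm (median 815) in Nestin-Cre and from 571 to 714 cpm (median 675) in AAV-Cre mice. In PFC the medians were 625 and 505 cpm, and in STR 662 and 445 cpm. SN lay above both other regions without overlap in both models, with log2 differences from 0.36 to 0.60. STR and PFC overlapped in Nestin-Cre mice (0.08, adjusted p 0.334), while in AAV-Cre mice all 7 STR libraries lay below the PFC libraries (-0.23, SE 0.0544, adjusted p 0.000970).

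Vps35 encodes the cargo-binding core of the retromer, which returns receptors from endosomes. Its WT range in SN was 245 to 338 cpm (median 294) in Nestin-Cre and 192 to 211 cpm (median 206) in AAV-Cre mice. Medians in PFC were 219 and 158 cpm and in STR 210 and 163 cpm. SN libraries lay above all PFC libraries in both models, by a log2 difference of 0.48 (SE 0.0851) and 0.46 (SE 0.0579). They lay above STR by 0.44 and 0.32, with overlap in Nestin-Cre mice. STR against PFC passed in AAV-Cre mice alone (0.14, SE 0.0579, adjusted p 0.0422, 7 of 7 above the PFC mean), with adjusted p from 0.0161 to 0.141 over the alternatives.

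Atp13a2 encodes a polyamine pump of the lysosomal membrane. Its WT range in PFC was 132 to 227 cpm (median 172) in Nestin-Cre and 143 to 229 cpm (median 192) in AAV-Cre mice. STR had medians of 150 and 157 cpm and SN of 150 and 221 cpm. STR was lower than PFC in both models, by a log2 difference of -0.30 (SE 0.116, adjusted p 0.0285) and -0.29 (SE 0.0905, adjusted p 0.00925), with overlap of the groups. SN was higher than PFC in AAV-Cre mice (0.23, SE 0.0902, adjusted p 0.0248), and above STR there without overlap (0.52, SE 0.0903). In Nestin-Cre mice SN against PFC was -0.20 (SE 0.116, adjusted p 0.124), and with mouse as a replicate block -0.24 with a call (adjusted p 0.0349). It passed in 2 of 7 alternatives, with adjusted p from 0.0349 to 0.241.

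The genotype comparisons ask whether the 8 genes differ in mice that carry the altered Gdnf allele. In AAV-Cre mice the 4 comparisons in PFC and SN were of tissue that was not injected. No member passed edgeR's quasi-likelihood test in any of the 12 comparisons of HET or HOM with WT, a count of 0 of 96 tests. At an unadjusted p under 0.05 there were 9 of 96, beside 8.3% of all gene tests. DESeq2 called 2 of 96, beside 0.621% of all gene tests, and edgeR's likelihood ratio test called 3, beside 2.36%. The log2 differences ran from -0.39 to 0.48, and the genotypes overlapped for every gene in every model and region.

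Few genes of any kind passed in these comparisons. In Nestin-Cre mice, 0.25% of all genes tested passed for HOM against WT in PFC, and 0% in the other 5 comparisons (HET in PFC, HET and HOM in STR, HET and HOM in SN). In AAV-Cre mice, 0.0137% passed for HOM against WT in PFC, and 0% for HET in PFC and for HET and HOM in STR and SN. These shares rest on few libraries. Over all comparisons, 38 calls became 3 without N_PFC_HOM_4568, 178 without N_PFC_HOM_4580 and 130 without the mouse of N_PFC_WT_4575. The 0 called among the 8 genes is thus near the background, and a missed threshold does not show that levels are equal.

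Sncb had the lowest adjusted p of the 96 tests, in Nestin-Cre STR. Its level ran from 93.0 to 130 cpm in HET mice (median 114) beside 102 to 172 in WT (median 154) and 108 to 177 in HOM (median 141). All 7 HET libraries lay below the WT mean, and 2 lay below the lowest WT library. The log2 difference of HET from WT was -0.39 (SE 0.127, adjusted p 0.184). It passed with DESeq2 (adjusted p 0.0886), with the likelihood ratio test (0.0279) and with all 3 regions in 1 fit (0.0659), in a range of 0.0279 to 0.266 over the alternatives. The fit of all 3 regions holds several libraries of a mouse, which are not independent. HOM mice had -0.11 (SE 0.132), and in AAV-Cre STR the differences were 0.08 and 0.09.

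Markers of cell types differed in the same Nestin-Cre STR groups. The 10 striatal projection neuron markers, with Penk the most abundant, summed to 6597 to 12077 cpm in HET (median 8330) beside 10898 to 13877 in WT (median 11763). All 10 were below WT in HET mice, 9 of them at an unadjusted p under 0.05 and none at an adjusted p under 0.1. The 9 cortical excitatory neuron markers had a median sum of 62.7 cpm in HET beside 123 in WT, with 8 of 9 below WT. Their HET range of 44.7 to 173 cpm lay within the WT range of 42.8 to 354. No marker of either list was at 0 in these groups. Library N_STR_HET_4566 had 18889 cpm of choroid plexus markers, beside at most 186 in the other HET libraries. Without it, a choice made after the data were seen, the Sncb difference was -0.43 (adjusted p 0.266, the upper end of that range). The part of striatal and cortical tissue in the Sncb difference was not tested.

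Sncg had the lowest unadjusted p, in Nestin-Cre PFC, where its counts are low. The 4 HOM libraries had 2.74, 3.14, 3.23 and 3.27 cpm, from 38, 43, 49 and 35 counts. The 8 WT libraries ran from 1.72 to 2.83 cpm (median 2.16) and the 6 HET libraries from 1.94 to 2.61 (median 2.30). All 4 HOM libraries lay above the WT mean, 3 of them above the highest WT library. The log2 difference was 0.48 (SE 0.148, adjusted p 0.217), from 0.45 to 0.53 over the alternatives, and none of them called it. In AAV-Cre PFC the HOM difference was -0.03 (SE 0.174). In Nestin-Cre STR the fitted HOM difference of Sncg was negative, at -0.35 (adjusted p 0.784), with overlap of the groups. Its level was low there too, with a median of 2.54 cpm over the 19 libraries of all genotypes. An effect opposite to that in PFC is therefore not shown for STR. In STR, 5 of 6 HOM libraries lay below the WT mean and 2 below the lowest WT library.

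In SN, where Sncg is abundant, the HET and HOM differences were -0.24 and -0.19 in Nestin-Cre mice and 0.26 and 0.15 in AAV-Cre mice. The last of these was 0.09 without libraries A_SN_WT_3587 and A_SN_HET_3676. Nestin-Cre HET mice ran from 75.4 to 115 cpm (median 109.5) beside 108 to 149 in WT (median 120). All 7 lay below the WT mean and 3 below the lowest WT library (adjusted p 0.539). The lowest, N_SN_HET_4628, also had the highest value (0.483) of a measure of library composition, the length index defined below. That index was above 0 in 4 of 7 HET and 1 of 6 WT libraries, and Sncg fell with it (r -0.715, adjusted p 0.0120). Without this library and N_SN_HOM_4627, r was -0.412 (adjusted p 0.270). With the index as a term the Nestin-Cre HET difference was -0.05, while the HOM difference was -0.23 in place of -0.19. In AAV-Cre mice the HET and HOM differences were 0.18 and 0.05 with that term. Both alternatives were chosen after the data were seen. Markers of cell types differed in the Nestin-Cre SN groups too, with overlap of the genotypes. Oligodendrocyte markers had median sums of 23024 cpm in HET and 20947 in HOM beside 28382 in WT. GABA neuron markers had 991 and 889 cpm beside 1273, and cortical excitatory neuron markers 96.7 and 164 beside 58.3. Dopamine neuron markers had 4000 and 3444 cpm beside 3918, so their HET median was not below that of WT. The part of composition and cell content in these Sncg differences was not tested. AAV-Cre HET mice ran from 72.4 to 143 cpm (median 94.2) beside 61.9 to 98.3 in WT, with 6 of 7 above the WT mean. That HET difference had an adjusted p of 0.946, and 0.0394 with the likelihood ratio test, in a range up to 0.999. It includes library A_SN_HET_3610, which stood apart at 143 cpm and had the highest summed level of dopamine neuron markers, 7031 cpm. In AAV-Cre SN, brain stem cholinergic or serotonergic neuron markers had median sums of 70.6 cpm in HET and 63.7 in HOM beside 37.4 in WT, with overlap. In Nestin-Cre SN, where the Sncg differences were negative, these medians were 68.3 and 77.7 beside 53.8. The part of such cells and of library A_SN_HET_3610 in the AAV-Cre HET difference was not tested.

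Lrrk2 in Nestin-Cre PFC was 41.3, 47.3, 59.2 and 59.8 cpm in the 4 HOM libraries beside 51.2 to 81.0 cpm in WT (median 66.1). All 4 lay below the WT mean and 2 below the lowest WT library. The log2 difference was -0.32 (SE 0.134, adjusted p 0.415) and passed with the likelihood ratio test alone (0.0485, in a range of 0.0485 to 1.0). In AAV-Cre PFC the HOM difference was 0.15 (SE 0.0950), with 5 of 8 libraries above the WT mean. Lrrk2 was highest in STR, and striatal markers were also lower in Nestin-Cre PFC of HOM mice. Those 10 markers summed to 336 to 651 cpm in HOM (median 474) and 361 to 590 in HET (median 459), beside 523 to 1114 in WT (median 734). All 10 were below WT in HOM mice, 8 at an unadjusted p under 0.05, and so were all 10 oligodendrocyte markers, with median sums of 4019 cpm in HOM and 5509 in WT. Ppp1r1b and Mbp were the most abundant of these lists in WT mice, and no marker was at 0. The part of striatal tissue and oligodendrocytes in the Lrrk2 difference was not tested.

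Uchl1 in AAV-Cre mice lay above the WT mean in all 8 HOM libraries of PFC, all 7 of STR and all 8 of SN. In PFC the HOM mice ran from 533 to 623 cpm (median 559) beside 488 to 554 in WT (median 505). The log2 differences were 0.13 (SE 0.0480, adjusted p 0.25) in PFC, 0.13 (SE 0.0539, adjusted p 1.000) in STR and 0.10 (SE 0.0611, adjusted p 0.722) in SN. DESeq2 called the one in PFC (adjusted p 0.0987, in a range of 0.0987 to 0.501). The 3 regions come from the same mice and are not independent. In Nestin-Cre mice the HOM differences were 0.02, -0.06 and 0.07 in the same order.

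Vps35 in AAV-Cre PFC ran from 161 to 198 cpm in HET mice (median 170) beside 124 to 173 in WT (median 158). All 7 HET libraries lay above the WT mean and 2 above the highest WT library. The log2 difference was 0.21 (SE 0.0749, adjusted p 0.340), and it passed with all 3 regions in 1 fit (0.0836, in a range of 0.0836 to 0.704). Libraries in the fit of all 3 regions share mice. A measure of library composition, the length index defined below, was above 0 in 6 of 7 HET and 2 of 7 WT libraries there. Vps35 rose with it (r 0.515, adjusted p 0.0427), though r was 0.436 (adjusted p 0.159) without the 2 libraries farthest from the median index. With the index as a term, chosen after the data were seen, the HET difference was 0.16 (adjusted p 0.704). The part of composition in it was not tested. Over the other comparisons its differences ran from -0.27 upward, the lowest in Nestin-Cre SN HET mice (SE 0.181). There Vps35 fell with the index (r -0.670, adjusted p 0.0176), and with the index as a term the difference was -0.07. The HOM difference in Nestin-Cre SN was -0.23, and -0.24 with that term.

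Markers of cell types also differed in the AAV-Cre PFC groups in which Uchl1 and Vps35 were above WT. All 8 astrocyte markers were below WT in HET and in HOM mice, with median sums of 5620 and 5682 cpm beside 6527 in WT, and so were all 7 microglia markers, with 362 and 358 cpm beside 427. Of 9 cortical excitatory neuron markers 8 were above WT in both, with 2098 and 2217 cpm beside 1960. Slc1a2, Csf1r and Slc17a7 were the most abundant of these lists, no marker was at 0, and none passed. At an unadjusted p under 0.05 there were 4 astrocyte, 5 microglia and 0 neuron markers in HET and 3, 5 and 2 in HOM mice. The part of cell content in the Uchl1 and Vps35 differences was not tested.

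The other 3 genes passed in no setting. Pink1 differences ran from -0.22 to 0.04, with the lowest adjusted p at 0.252 in Nestin-Cre STR HET mice, where all 7 libraries lay below the WT mean. With the length index as a term that difference was -0.13 in place of -0.22. Park7 was lowest against WT in Nestin-Cre STR HET mice, at 88.3 to 129.6 cpm (median 104) beside 109 to 147 in WT (median 135). All 7 of these HET libraries lay below the WT mean and 4 below the lowest WT library (-0.25, SE 0.142, adjusted p 0.354). With the same term, chosen after the data were seen, that difference was -0.08. In Nestin-Cre PFC, 5 of 6 HET libraries lay below the WT mean (-0.12, SE 0.0518, adjusted p 0.480). Park7 differences ran from -0.25 to 0.04 and Atp13a2 differences from -0.13 to 0.18, with lowest adjusted p of 0.354 and 0.616. The highest Atp13a2 difference, 0.18 in Nestin-Cre SN HET mice, was -0.00618 with the length index of the library as a term, an alternative chosen after the data were seen.

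**Figure D2:**
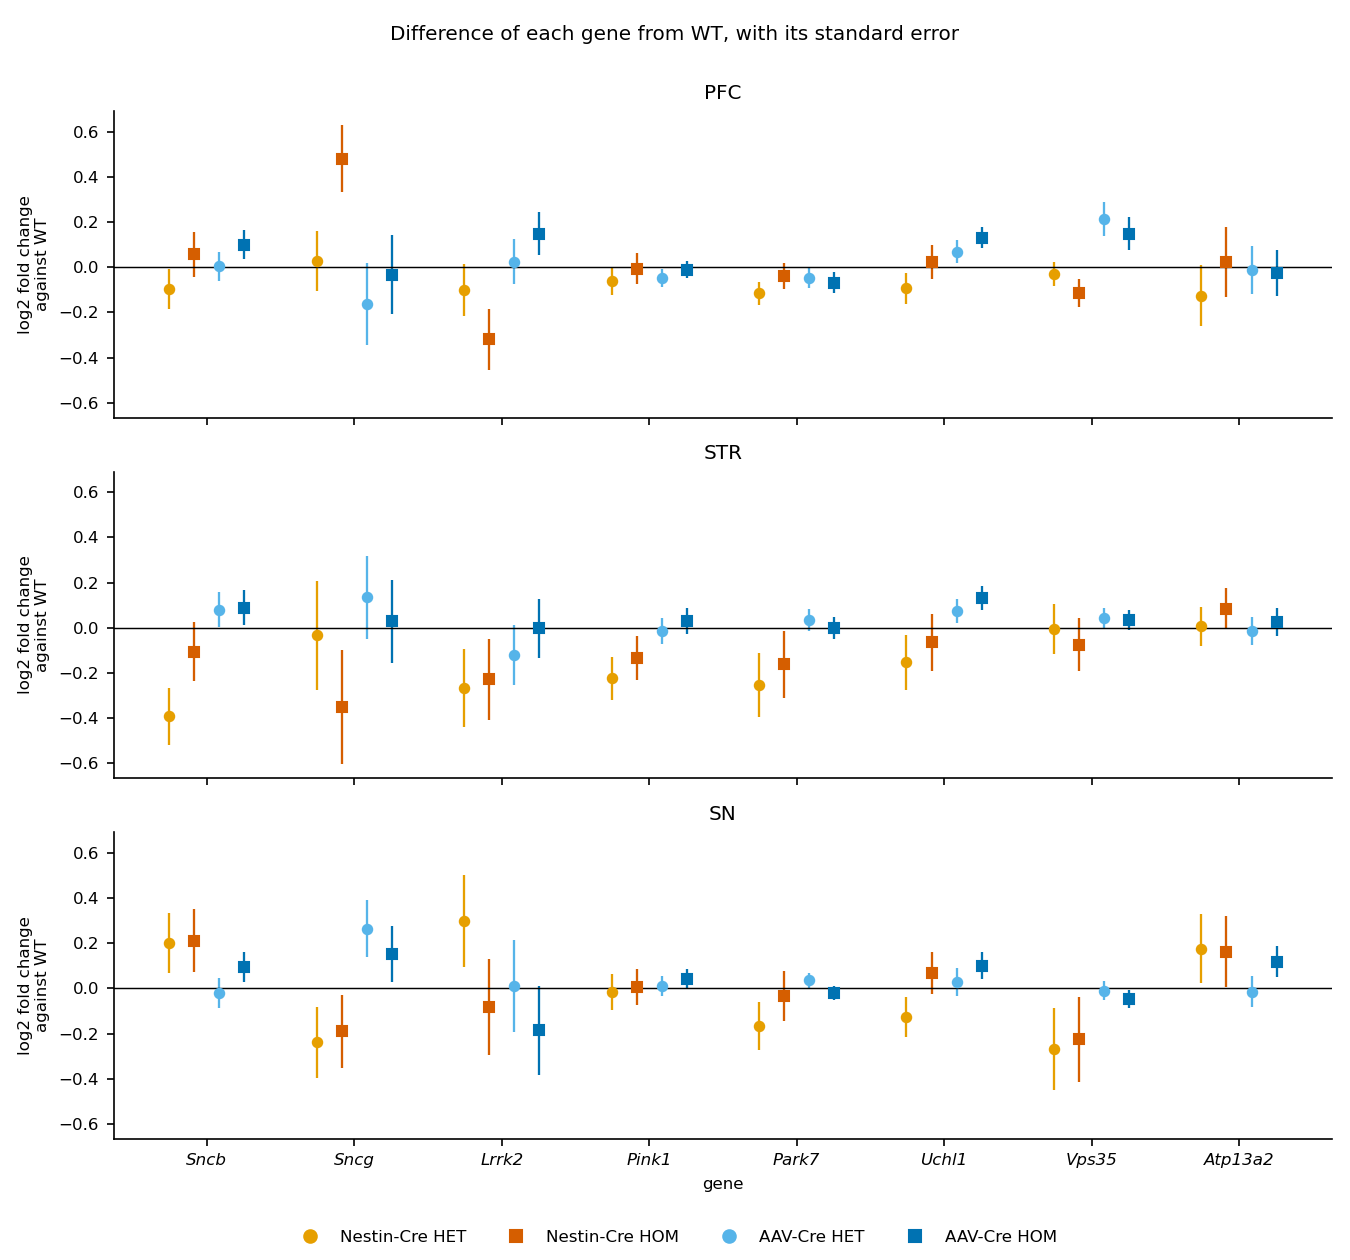
Log2 difference from WT with its standard error for each of the 8 genes, in 1 panel per region, for HET and HOM mice of the Nestin-Cre and AAV-Cre models. Values lie between -0.39 and 0.48, and none passed at an adjusted p under 0.1 in the quasi-likelihood test.

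Whether a genotype difference varied with model or region was tested with interaction terms in edgeR's quasi-likelihood fit. Between models, 0 of the 24 tests on the 8 genes passed, beside 1.99% of all genes in PFC, 0.0135% in STR and 0% in SN. At an unadjusted p under 0.05 there were 3, beside 10.6% of all gene tests, namely Vps35 and Lrrk2 in PFC (adjusted p 0.208 and 0.246) and Sncb in STR (adjusted p 0.465). Between regions, 0 of 16 passed, beside 0% of all genes for Nestin-Cre mice and 0.00648% for AAV-Cre mice. There 3 had an unadjusted p under 0.05, beside 5.6% of all gene tests, namely Sncb and Sncg in Nestin-Cre and Vps35 in AAV-Cre mice. The other tools were not run for these interactions. The differences above for single groups are therefore not shown to differ between models or regions.

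The WT mice of the models were compared as a description, since age, virus and source of Cre move together. The clearest pattern was that Vps35 and Uchl1 were lower in AAV-Cre mice in all 3 regions. In SN, Sncb and Atp13a2 were higher and Sncg and Park7 lower in AAV-Cre mice, each without overlap. Pink1 passed nowhere, with log2 differences from -0.07 to 0.09.

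In SN, 7 of 8 genes passed (3 higher and 4 lower in AAV-Cre mice) beside 62.4% of all genes. In STR, 3 of 8 passed, all lower, beside 61.9% of all genes. In PFC, 3 of 8 passed (Sncg higher, Uchl1 and Vps35 lower) beside 46.9% of all genes. The members' shares lay on both sides of the background.

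Vps35 differed by -0.47 (SE 0.0692) in PFC, -0.37 (SE 0.0771) in STR and -0.59 (SE 0.0766) in SN on the log2 scale, and in each region all 7 AAV-Cre libraries lay below every Nestin-Cre library. Uchl1 differed by -0.20 (SE 0.0546), -0.51 (SE 0.0699) and -0.36 (SE 0.0657) in the same order, without overlap in STR and SN. Park7 differed by -0.40 (SE 0.0766) in STR and -0.51 (SE 0.0560) in SN, and its 7 AAV-Cre SN libraries, at 96.6 to 109 cpm, lay below the Nestin-Cre range of 131 to 158 cpm. In PFC its difference was 0.06 (adjusted p 0.331).

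The synucleins moved in opposite directions in SN. Sncb was higher by 0.39 (SE 0.0736) and Sncg was lower, at -0.64 (SE 0.103), with no overlap of either. In PFC, Sncg was higher by 0.50 (SE 0.179, adjusted p 0.0349, 5 of 7 libraries above the Nestin-Cre mean). Atp13a2 was higher in SN by 0.43 (SE 0.0794), all 7 libraries above the Nestin-Cre range. Lrrk2 was higher in SN by 0.43 (SE 0.144, adjusted p 0.0193), and by 0.27 without library A_SN_WT_3587.

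Other measures moved with the model too. In SN, all 10 oligodendrocyte markers were lower in AAV-Cre mice, with a median log2 difference of -0.93 and summed levels of 17628 against 28382 cpm. Mbp was the most abundant of them. Of the 11 dopamine neuron markers in SN, 5 were higher and 1 was lower (Aldh1a1), and their sum was 3910 against 3918 cpm. In PFC, all 10 striatal markers were higher in AAV-Cre mice. Differences also followed exon length in SN, with a Pearson r of 0.432 across genes, which are not independent replicates. Genes in the lowest quartile of exon length had a median of -0.35 and those in the highest 0.25. Of the members called in SN, those with the shortest exons (Sncg 732 bases, Park7 903, Uchl1 1147) were lower and those with the longest (Lrrk2 8230, Atp13a2 4327) higher. Sncb (1196 bases, higher) and Vps35 (3169 bases, lower) went the other way. The part of cell mixture, RNA quality and exon length in these differences was not tested.

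Whether regional differences of WT mice varied between models was tested after the data were seen, in 1 fit of the 6 WT groups. Sncg had the largest such term, since its excess in SN was smaller in AAV-Cre mice, by -1.06 against PFC (SE 0.212, adjusted p 0.000128) and -0.94 against STR (SE 0.209, adjusted p 0.00118). Between SN and PFC, 5 of 8 genes passed (3 upward and 2 downward) beside 45.0% of all genes. Between SN and STR, 3 of 8 passed beside 34.0%, and between STR and PFC, 2 of 8 passed beside 29.4%. Park7, lower in PFC than elsewhere in Nestin-Cre mice alone, differed by -0.51 for SN against PFC and -0.46 for STR against PFC. Sncb differed by 0.51 for SN against STR. These shares were near those of all genes. The regions came largely from the same mice, and this fit did not hold mouse. With mouse as a replicate block, chosen after the data were seen, 11 of 24 passed in place of 10. That fit used 7 mice of each model with libraries of more than 1 region. The added gene was Uchl1 for SN against STR, at 0.20 (adjusted p 0.0982, in a range of 0.0860 to 0.135 over the alternatives). The Sncg terms passed in every alternative, and with the block they were -0.97 and -0.91 (adjusted p at most 0.00154 and 0.00323).

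Sncg in SN was set against the level of dopamine neuron transcripts, since a nigral dissection can hold more or fewer of these cells. The index was the mean log2 cpm of 11 markers that are not among the 8 genes, with genotype means removed. In the 22 AAV-Cre SN libraries, Sncg rose with the index, with a Pearson r of 0.871 (permutation p 2.0e-05, adjusted p 0.000320 over 16 relations) and a Spearman rho of 0.911 (permutation p 1e-05, the smallest that 100000 permutations can give). Without libraries A_SN_WT_3587 and A_SN_HET_3610, farthest from the median index, r was 0.785 (permutation p 1.0e-04). In the 19 Nestin-Cre SN libraries, r was 0.602 (permutation p 0.0284, adjusted p 0.0936) and rho was 0.540 (permutation p 0.0458). Without N_SN_HET_4606 and N_SN_HOM_4627, r was 0.512 (permutation p 0.0884). With Th alone in place of the index, the Nestin-Cre relation of Sncg was r 0.876 (adjusted p 0.00128), and Uchl1 passed there as well (r 0.693, adjusted p 0.00379).

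**Figure D3:**
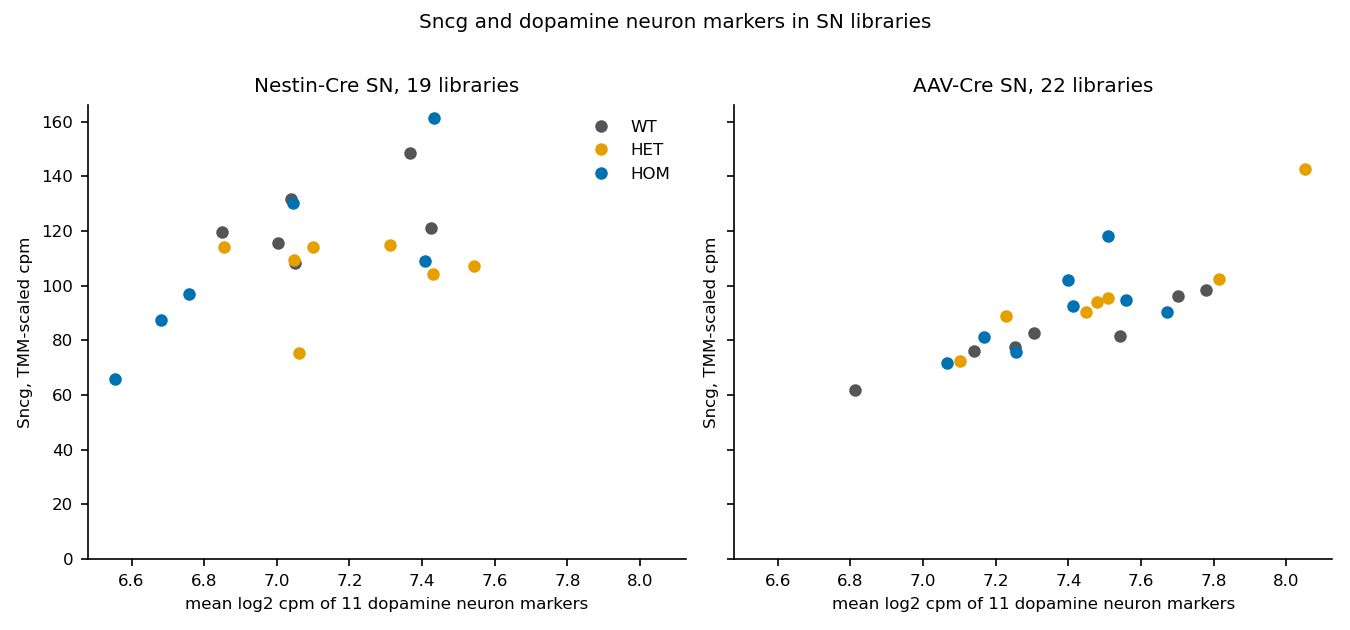
Sncg in cpm against the mean log2 cpm of 11 dopamine neuron markers, 1 point per SN library by genotype, in panels for the 19 Nestin-Cre and the 22 AAV-Cre libraries. In the AAV-Cre panel the points rise together, with library A_SN_HET_3610 at 143 cpm at the top.

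None of the other 15 relations with the 11-marker index passed at an adjusted p under 0.05. These relations were not counted over all genes, so how many genes follow the index as Sncg does is not known. Lrrk2 had an r of -0.503 in Nestin-Cre SN (permutation p 0.0200, adjusted p 0.0936), and Pink1 0.485 (permutation p 0.0361, adjusted p 0.0963). In AAV-Cre SN, Uchl1 had 0.567 (permutation p 0.0166, adjusted p 0.0936), and Pink1 0.515 (permutation p 0.0292, adjusted p 0.0936). Without libraries A_SN_WT_3587 and A_SN_HET_3676, left out after the data were seen, the r of Uchl1 was 0.737 and passed (adjusted p 0.0146). The index itself overlapped between genotypes, with medians of 7.04, 7.10 and 6.90 in WT, HET and HOM of Nestin-Cre and 7.31, 7.48 and 7.41 of AAV-Cre mice.

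For Lrrk2 in SN, 3 libraries stood apart from their groups, and each also had high levels of markers of another tissue. Library N_SN_HET_4566 had 47.0 cpm of Lrrk2 beside 13.4 to 27.4 in the other 6 libraries, and its striatal markers summed to 1769 cpm beside at most 368. Library A_SN_WT_3587 had 45.0 cpm beside 22.4 to 26.3, and a striatal sum of 1001 cpm beside at most 428. Library A_SN_HET_3676 had 56.7 cpm beside 19.8 to 24.3. Its striatal sum was 388 cpm, but its choroid plexus markers summed to 20111 cpm beside at most 217 in the other 6. Without these libraries the Lrrk2 difference of Nestin-Cre SN HET mice was 0.06 in place of 0.30 (adjusted p 0.854 and 0.546). In AAV-Cre SN it was -0.11 in place of 0.01 for HET and -0.02 in place of -0.19 for HOM mice, and none of these passed. The part of these tissues in the Lrrk2 levels was not tested.

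**Figure D4:**
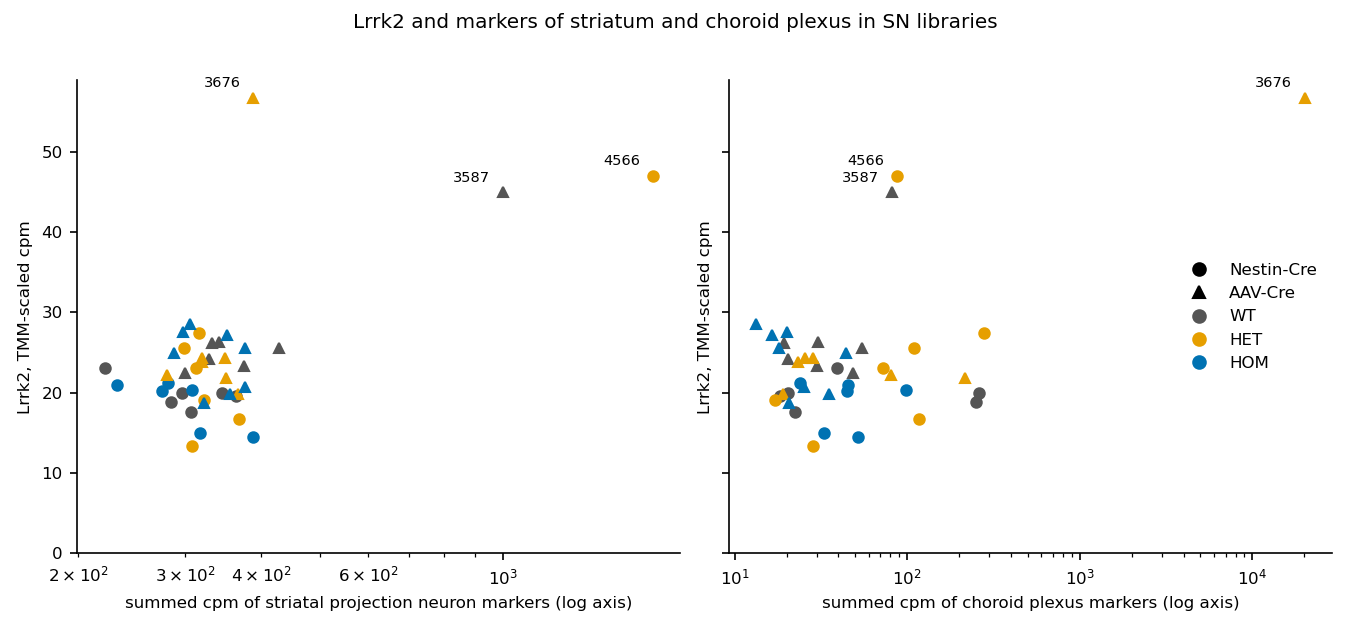
Lrrk2 in cpm in each SN library against the summed cpm of striatal markers and of choroid plexus markers. Libraries N_SN_HET_4566 and A_SN_WT_3587 lie at the right end of the striatal axis and A_SN_HET_3676 at the right end of the choroid plexus axis.

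Several genes also followed a measure of library composition chosen after the data were seen. This length index is the Pearson r, over genes, of a library's log2 level (less the mean of its model and region) with log2 exon length. By this definition genes with short exons tend to fall with it and those with long exons to rise. The 8 genes are among those it is taken over. Of 48 relations of the 8 genes with it within a model and region, 23 passed at an adjusted p under 0.05, 17 negative and 6 positive. These 23 had a permutation p of 0.0220 or lower, as did 25.2% of the relations of all genes, 12.8% positive and 12.3% negative. Park7, with short exons, fell with the index most closely in Nestin-Cre mice, with r -0.921 in STR (permutation p 1e-05, the smallest possible; rho -0.912) and -0.915 in SN (permutation p 2.0e-05; rho -0.912). Uchl1 had r -0.842 in Nestin-Cre PFC (permutation p 4.0e-05) and -0.834 in Nestin-Cre STR (permutation p 0.000590). Atp13a2, with long exons, had 0.697 and 0.708 in Nestin-Cre STR and SN (permutation p 0.00127 and 0.00210), but -0.596 in Nestin-Cre PFC (permutation p 0.0166). The index was not even between genotypes. It was above 0 in 1 of 6 WT, 3 of 7 HET and 3 of 6 HOM libraries of Nestin-Cre STR, in 1 of 6, 4 of 7 and 2 of 6 of Nestin-Cre SN, and in 2 of 7, 6 of 7 and 4 of 8 of AAV-Cre PFC. In Nestin-Cre PFC these counts were 4 of 8, 4 of 6 and 2 of 4, in AAV-Cre STR 4 of 7, 5 of 7 and 4 of 7, and in AAV-Cre SN 4 of 7, 3 of 7 and 2 of 8. With the index as a term in the fit, still none of the 96 genotype tests passed. Other Nestin-Cre HET differences moved with the term, among them Uchl1 and Lrrk2 in STR (-0.15 to -0.02 and -0.27 to -0.40). In SN these included Park7 (-0.17 to -0.02), Sncb (0.20 to 0.10) and Uchl1 (-0.13 to -0.08). In PFC they included Atp13a2 (-0.13 to -0.05), Lrrk2 (-0.10 to -0.18), Sncb (-0.10 to -0.03), Uchl1 (-0.09 to -0.04) and Pink1 (-0.06 to -0.01). Nestin-Cre STR HOM differences moved for Park7 (-0.16 to -0.04) and Lrrk2 (-0.23 to -0.35), among others. In AAV-Cre SN HOM mice, moves included Lrrk2 (-0.19 to -0.07), Uchl1 (0.10 to 0.06) and Atp13a2 (0.12 to 0.07).

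The genes most alike to each member over all 121 libraries were found by Pearson r of log2 cpm among 13792 genes, as a description without a test, since libraries share region, model and mouse. Sncg was most like Ddc (0.981), the enzyme that completes dopamine synthesis, Ret (0.978), the signalling receptor of GDNF, and Pcbd1 (0.976). Sncb was most like Syt13 (0.963), Fndc4 (0.961) and Tmem25 (0.958). Lrrk2 was most like the kinase gene Slk (0.974), Dpy19l3 (0.973) and Ppp1r9a (0.969), which encodes a neuronal actin-binding protein. Sncg, Sncb and Lrrk2 also had the largest differences between regions, and the part of region in these r was not tested.

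Park7 was most like Fis1 (0.943), Cox4i1 (0.941) and Minos1 (0.927), which all encode mitochondrial proteins. Uchl1 was most like Stmn3 (0.902), Slc25a4 (0.900), an ATP carrier of mitochondria, and Cmas (0.895). Vps35 was most like Atad1 (0.961), Crbn (0.959) and Dld (0.953), and Atp13a2 was most like Caskin1 (0.900), Dtx1 (0.879) and Foxp4 (0.860). Pink1, the most even gene over regions, had the lowest values, 0.705 with Haghl, 0.681 with Vegfb and 0.665 with Dexi.

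Genes that act with the 8 members were followed in 8 lists of 172 genes in all, and a gene of more than 1 list, such as Rab3a, counts once in each. Between regions of WT mice 812 of 1050 list tests passed, beside 73.1% of all gene tests. For SN against STR, 37.8% of all genes were higher and 38.3% lower in Nestin-Cre mice (median log2 difference 0.01), and 39.7% higher and 35.9% lower in AAV-Cre mice (median 0.03). For STR against PFC, Nestin-Cre mice had 34.2% higher and 34.0% lower, while AAV-Cre mice had 33.8% higher and 31.8% lower. Glial content differed as well. Oligodendrocyte markers, with Mbp the most abundant, summed to 28382 cpm in SN beside 8668 in STR of Nestin-Cre mice (10 of 10 higher) and to 17628 beside 10597 of AAV-Cre mice (9 of 10 higher). Of 8 astrocyte markers 6 were higher and 2 lower in both models. Between STR and PFC, oligodendrocyte markers summed to 8668 beside 5509 cpm in Nestin-Cre and 10597 beside 5055 cpm in AAV-Cre mice. Cortical excitatory neuron markers summed to 123 cpm in STR beside 2278 in PFC of Nestin-Cre mice. In AAV-Cre mice these sums were 67.8 and 1960 cpm. The part of cell content in the counts was not tested. Counts for SN against STR follow by list.

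Lysosomal genes with the P5-type ATPases, the family of Atp13a2, were mostly higher in SN than in STR, 19 higher and 3 lower of 28 in Nestin-Cre (median 0.37) and 20 and 3 in AAV-Cre mice (median 0.31). Atp13a4, a relative of Atp13a2, ran from 29.9 to 53.0 cpm in Nestin-Cre SN beside 11.1 to 19.9 in STR, a log2 difference of 1.43 (SE 0.136) without overlap. In AAV-Cre mice its difference was 1.09 (SE 0.104). Galc, which breaks down a myelin lipid, was at the other end with -0.06 (adjusted p 0.425) and -0.21 (SE 0.0505).

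Genes of the retromer, sorting nexins and the WASH complex, the partners of Vps35, had 10 higher and 6 lower of 22 in Nestin-Cre (median 0.17) and 13 and 7 in AAV-Cre mice (median 0.21). Washc4, a WASH complex subunit, had 63.2 cpm in SN beside 33.8 in STR as medians of Nestin-Cre mice, a log2 difference of 0.85 (SE 0.0915), and 0.82 in AAV-Cre mice. Sort1, a sorting receptor, was lower in SN by -0.64 (SE 0.0968) and -0.42 (SE 0.0572). Neither gene's groups overlapped.

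Rab GTPases and other genes around Lrrk2 had 11 higher and 7 lower of 21 in Nestin-Cre (median 0.11) and 12 and 8 in AAV-Cre mice (median 0.29). Between STR and PFC they were mostly lower in STR, 14 lower and 2 higher in Nestin-Cre and 13 lower and 0 higher of 21 in AAV-Cre mice, while Lrrk2 was higher. Rab3b, a Rab of synaptic vesicles, was lower in SN than STR by -1.38 (SE 0.145) and -1.06 (SE 0.114). Ppm1j, a phosphatase gene with at most 1.40 cpm in SN, was higher by 1.24 (SE 0.502) and 1.53 (SE 0.539).

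Mitochondrial quality control genes around Pink1 had 11 higher and 11 lower of 29 in Nestin-Cre (median 0.07) and 14 and 7 in AAV-Cre mice (median 0.12). Optn, an adaptor that brings marked mitochondria to the autophagy machinery, had medians of 42.0 cpm in SN and 10.7 in STR of Nestin-Cre mice, a log2 difference of 1.94 (SE 0.0912), and 1.40 (SE 0.0993) in AAV-Cre mice. Tomm70a, a receptor of the outer mitochondrial membrane, was lower by -1.52 (SE 0.0815) and -1.30 (SE 0.0754). All 4 comparisons were without overlap.

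Redox and glyoxal defence genes around Park7 had 12 higher and 4 lower of 19 in Nestin-Cre (median 0.34) and 11 and 6 in AAV-Cre mice (median 0.14). Cat, the catalase gene, was higher in SN by 1.17 (SE 0.0739) and 0.67 (SE 0.0662). Gpx1, a glutathione peroxidase, was lower by -0.57 (SE 0.0984) and -0.67 (SE 0.0678). Ubiquitin genes and deubiquitinases around Uchl1 had 4 higher and 4 lower of 14 (median -0.02) and 6 and 3 (median 0.05). Uchl5, of the same hydrolase family, was higher by 0.95 (SE 0.105) and 0.80 (SE 0.0689).

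Presynaptic vesicle genes, the company of the synucleins, had 7 higher and 7 lower of 19 in Nestin-Cre (median 0.05) and 14 and 3 in AAV-Cre mice (median 0.39). Between STR and PFC they were mostly lower in STR, as was Sncb, with 16 lower and 2 higher in Nestin-Cre (median -0.93) and 17 and 1 in AAV-Cre mice (median -0.84). Slc18a2, the vesicular monoamine transporter, was higher in SN than STR by 8.15 (SE 0.300) and 8.83 (SE 0.182). Cplx2, a complexin that binds the fusion machinery, was lower by -2.41 (SE 0.0848) and -1.67 (SE 0.0697).

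Further Parkinson disease genes had 9 higher and 5 lower of 23 in Nestin-Cre (median 0.11) and 13 and 4 in AAV-Cre mice (median 0.15). Slc6a3, counted in this list as the gene of a childhood parkinsonism, was higher in SN than STR by 11.76 (SE 0.320) and 11.94 (SE 0.353). Ptrhd1 was lower by -0.52 (SE 0.0843) and -0.46 (SE 0.0591), without overlap.

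Between the models in SN, the lists split. Redox genes had 3 higher and 15 lower of 19 in AAV-Cre mice (median -0.57), as Park7 was lower, and ubiquitin genes 3 and 9 of 14 (median -0.35), as Uchl1 was lower. Lysosomal genes had 5 and 15 of 28 (median -0.14), while Atp13a2 was higher. Retromer genes had 7 and 11 of 22 (median -0.11), Pink1-related genes 7 and 16 of 29 (median -0.17), Lrrk2-related genes 4 and 7 of 21 (median 0.01) and further Parkinson disease genes 10 and 7 of 23 (median 0.14). Presynaptic genes had 10 higher and 0 lower of 19 (median 0.19), and Sncb was higher. Of all genes 30.5% were higher and 31.9% lower with a median of -0.01, and the fall of oligodendrocyte markers and the trend with exon length given above hold for these counts too. Over all regions 338 of 523 list tests between models passed, beside 57.1% of all gene tests.

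In the genotype comparisons, 0 of 2092 list tests passed edgeR's quasi-likelihood test, while 182 had an unadjusted p under 0.05 (8.3% of all gene tests did), DESeq2 called 20 (0.621% of all) and the likelihood ratio test called 50 (2.36% of all). When genotype effects were compared between regions, 0 of 350 passed and 19 had an unadjusted p under 0.05 (5.6% of all gene tests did). When they were compared between models, 2 of 523 passed, beside 0.66% of all gene tests (1.99% in PFC). Both were lysosomal genes in PFC, and they are named here after their values were seen. Atp13a4 (adjusted p 0.0669) differed from WT by 0.41 in HET and 0.15 in HOM Nestin-Cre mice and by -0.20 and -0.39 in AAV-Cre mice. Atp6v1h (adjusted p 0.0525), a subunit of the lysosomal proton pump, differed by -0.09 and -0.07 in Nestin-Cre and by 0.23 and 0.24 in AAV-Cre mice. In the same test the glial markers Aif1, Cldn11, Cnp, Ermn, Gja1, Mag and Mal passed too, and the part of glial content in the 2 lysosomal genes was not tested. When regional differences were compared between models, 269 of 525 list tests passed, beside 36.1% of all gene tests.

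The largest log2 differences called by the likelihood ratio test in these lists were those of Atp6v0c, another subunit of the lysosomal proton pump, named here after its values were seen. In AAV-Cre HOM mice they were -1.80 in PFC, -1.54 in STR and -2.01 in SN (adjusted p at most 1.0e-14 in that test), and in Nestin-Cre HET mice -0.48, -0.52 and -0.62. DESeq2 called none of them, nor did the quasi-likelihood test (adjusted p at least 0.456), where the SE ran from 0.772 to 1.24. Every library had either at most 3.00 cpm or at least 13.6 cpm of Atp6v0c, and all libraries of a mouse lay on the same side. The low side held 15 of 22 AAV-Cre and 4 of 21 Nestin-Cre mice. WT mice were on both sides in both models. In SN the low side held 4 of 7 WT, 4 of 7 HET and 7 of 8 HOM libraries of AAV-Cre mice, and 1 of 6, 2 of 7 and 1 of 6 of Nestin-Cre mice. What sets the side of a mouse was not tested.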

How the data were processed

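The authors aligned reads to mm10 with STAR 2.5.2b and counted them per gene with featureCounts 1.5.1, and the deposited values are raw counts of 24412 genes in 121 libraries. Genes that reached 1 cpm of the unscaled library total in 3 libraries or more were tested with edgeR 4.0.16 (TMM, quasi-likelihood, R 4.3.3), within each model and region for genotype and within WT mice for region and model, at an adjusted p under 0.1 over all genes. DESeq2 1.42.0, the likelihood ratio test, other scalings and filters, a joint fit of all regions, mouse as a replicate block and leaving out libraries were tried. The members and lists were chosen with earlier results of these data known. The genes named are the 8 members, list genes called for genotype (at most 3 with the lowest p per comparison and list), the list genes with the largest and the smallest difference between SN and STR in AAV-Cre WT mice, the 3 genes most alike to each member, and marker genes that moved with a member. Regions of the same mouse were checked for pairing. The medians of r ran from 0.207 to 0.347 for the same mouse and from -0.0208 to -0.00152 for different mice. All 16 pairs passed 0.1 for PFC and STR of Nestin-Cre mice. For the other pairs of regions not every mouse did, so mouse is an alternative. Libraries in the main regional fits and in the fit of all 3 regions share mice. Library totals are in the report, and counting error alone is not the spread between mice. Permutations (100000, two-sided) were within genotype, on log2 of cpm plus 0.5. Printed cpm use library totals scaled by TMM factors over all libraries. Some items are withheld and not covered.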

Additional observations from a re-analysis of the deposited data

Results flagged for a closer look

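In 9 of 144 groups of 4 to 8 libraries, 1 library lay far from the others, and chance gives about 1 in 20 groups. Sncg was 75.4 cpm in library N_SN_HET_4628 (others 104 to 115) and 143 cpm in A_SN_HET_3610 (others 72.4 to 102). Lrrk2 was 47.0 cpm in N_SN_HET_4566, 45.0 cpm in A_SN_WT_3587 and 56.7 cpm in A_SN_HET_3676, each the highest of its group. Pink1 was 514 cpm in A_STR_HOM_3567 (others 370.1 to 412), and Park7 was 111 cpm in A_STR_HET_3676 (others 97.2 to 101). Vps35 was 226 cpm in A_SN_HOM_3607 (others 185 to 199), and Atp13a2 was 223 cpm in N_PFC_HOM_4568 (others 164 to 174). The causes were not tested.

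Of 24 tests of whether a regional difference of WT mice varied between models, chosen after the data were seen, 10 passed. The values are AAV-Cre minus Nestin-Cre on the log2 scale. For SN against PFC they were 0.393 for Atp13a2, 0.529 for Lrrk2, -0.514 for Park7, 0.339 for Sncb and -1.06 for Sncg. For SN against STR they were 0.378 for Atp13a2, 0.511 for Sncb and -0.944 for Sncg. For STR against PFC they were -0.460 for Park7 and -0.314 for Uchl1. Without library A_SN_WT_3587, that of Lrrk2 was 0.37. Age, virus and source of Cre cannot be told apart here.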

How the results depend on the processing

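Of the genotype differences of the 8 genes under alternative settings, 792 kept their direction and their side of the threshold, 7 passed and 29 changed sign. DESeq2 called 2 of 96 (Uchl1 in AAV-Cre PFC HOM and Sncb in Nestin-Cre STR HET), the fit of all 3 regions 2 (Vps35 in AAV-Cre PFC HET and Sncb in Nestin-Cre STR HET) and the likelihood ratio test 3 (Sncg in AAV-Cre SN HET, Lrrk2 in Nestin-Cre PFC HOM and Sncb in Nestin-Cre STR HET). Over all genes and comparisons, 38 calls became 1091 with DESeq2, 1777 with all 3 regions, 4145 with the likelihood ratio test, 139 with the length index as a term (chosen after seeing the data), 12 at an adjusted p under 0.05, and 3 to 178 when 1 library or mouse was left out (3 without N_PFC_HOM_4568, 11 without N_PFC_HOM_4569, 178 without N_PFC_HOM_4580, 130 without the mouse of N_PFC_WT_4575). The cause was not tested.

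Of the differences that changed sign, the largest was that of Atp13a2 in Nestin-Cre SN HET mice (0.176), and the others lay between -0.06 and 0.06. With DESeq2 size factors, Park7 in AAV-Cre STR HOM was 0.000315. With all 3 regions it was 0.000949, and Lrrk2 in AAV-Cre SN HET was -0.00479. Without a filter, Lrrk2 and Park7 in AAV-Cre STR HOM were 0.00131 and 0.00414, and Atp13a2 in Nestin-Cre STR HET was -0.000734. With the length index as a term, AAV-Cre HET values were 0.0421 for Atp13a2 and -0.0631 for Lrrk2 in PFC, 0.00691 for Pink1 in STR, and -0.0210 for Pink1 and -0.00672 for Uchl1 in SN. AAV-Cre HOM values were 0.0350 for Lrrk2 and -0.00462 for Pink1 in STR, and -0.00525 for Pink1 in SN. Nestin-Cre values were -0.00618 for Atp13a2 in SN HET, -0.0685 for Atp13a2, 0.0973 for Sncg and 0.0695 for Vps35 in STR HET, and 0.0347 for Uchl1 in STR HOM. Without 3 SN libraries (A_SN_WT_3587, A_SN_HET_3676 and N_SN_HET_4566, chosen after seeing the data), AAV-Cre SN HET values were -0.110 for Lrrk2 and 0.0126 for Sncb. Without library N_STR_HET_4566 (chosen after seeing the data), Nestin-Cre STR HET values were -0.00667 for Atp13a2 and 0.0360 for Vps35. When 1 library was left out, Nestin-Cre PFC HOM values ran from -0.0966 to 0.0732 for Atp13a2, from -0.0630 to 0.0511 for Pink1, from -0.0549 to 0.109 for Sncb and from -0.0276 to 0.0618 for Uchl1. The cause was not tested.

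Of the regional differences, 323 kept direction and side, 6 passed, 6 no longer passed and 1 changed sign, Pink1 for SN against STR in Nestin-Cre mice at 0.00137 with mouse as a replicate block. Of the differences between models, 111 kept both and 1 passed. Of the regional differences compared between models, 67 kept both, 2 passed, and Pink1 for SN against PFC changed sign, at 0.00231 without 3 SN libraries, 0.00825 without the mouse of N_PFC_WT_4575 and 0.00608 with mouse as a replicate block (chosen after seeing the data). Interactions with genotype kept both in 48 of 48, and the count over all genes in genotype by region went from 1 to 0 with mouse as a replicate block.

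Of the relations to the dopamine marker index, 41 kept both. The count past the threshold was 1, and 3 with Th alone and 2 without 3 SN libraries. No share over all genes stands beside these counts. With Th alone, r in Nestin-Cre mice changed sign for Sncb (-0.111), Vps35 (0.0246) and Atp13a2 (-0.0988). Without the 2 libraries farthest from the median index, that of Park7 was -0.0254. The cause was not tested. Sncg outside SN rests on few counts, which limits what can be seen there.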
